A study of Mus musculus with 24 samples.

Results

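SENCR is a long non-coding RNA of vascular smooth muscle and endothelial cells, transcribed from the strand opposite to FLI1, within whose locus it lies. FLI1 encodes a transcription factor of the ETS family. The values of these 2 genes were taken from a table of 7493 genes by their symbols, and are described here in all 24 libraries. Every library came from mice that carried a SENCR-BAC transgene, a large insert of human genomic DNA in a bacterial artificial chromosome, and the labels name no animals without it and give no age, sex, strain, copy number or insertion site. Aorta, heart, kidney, lung, spleen, liver, stomach and brain were represented by 3 libraries each, numbered 1 to 3 in the titles.

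ETS factors bind DNA around a GGAA core. FLI1 acts in endothelial cells and in blood lineages, platelet precursors among them, where it works with ERG, GATA2, RUNX1, TAL1, LYL1 and LMO2. SENCR has been studied mainly in cultured human vascular cells, where it has been linked to the contractile state of smooth muscle and to endothelial junctions.

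Values are FPKM, the reads of a gene scaled to its length and to the size of the library. The reads of mouse tissue had been placed on a human genome, so the table holds transgene reads together with mouse reads alike enough to align there. Levels are therefore compared between tissues within a gene. The ratio of the pair is also described, with its limits. Recovered read totals were between 185724 and 628043 per library. Of 5 defining genes looked for in each labelled tissue, those called higher there than in the mean of the other tissues numbered 3 in aorta, 4 in heart, 3 in kidney, 2 in lung, 2 in spleen, 3 in liver, 2 in stomach and 5 in brain. The rest had no row in the table, except ATP4A in stomach, which was too low to be tested, and ALB and SERPINA1 in liver. ALB was at 0.752 FPKM in liver against 13 ± 13.8 in aorta (SD, n = 3), and SERPINA1 was listed at 0 in liver and at 0.661 FPKM in aorta. These 2 genes thus went against the other 3, HAO1, CPS1 and FGA, which were at 1938, 117 and 197 FPKM in liver. A value near 0 therefore does not show that a gene is silent in a tissue. Of the 2 genes called in stomach, SOX2 was also called higher in brain, at 10.8 FPKM against 5.05 in stomach. A gene could enter the test through the tissue where it is high, so the counts are descriptions. In bulk tissue, fewer cells of a type and less RNA per cell cannot be told apart.

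SENCR was detected in all 24 libraries, and its highest levels fell in 4 organs. In kidney it was at 78.9, 31.2 and 102 FPKM in libraries 1, 2 and 3. In lung it was at 68.4, 32.6 and 64.0 FPKM. In heart it was at 32.5, 59.8 and 65.9 FPKM. These 3 tissues overlapped fully, with the lowest library of each between 31.2 and 32.6 FPKM. Aorta, itself a vessel, followed at 59.4, 25.1 and 40.9 FPKM, with library 2 below every library of those 3. Spleen was at 42.7, 14.0 and 17.7 FPKM, so that a single library reached the range of the first 4 tissues.

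The other 3 tissues were low in every library. Liver had SENCR at 7.37, 17.9 and 15.9 FPKM, stomach at 13.2, 4.64 and 14.3 FPKM, and brain at 10.6, 1.2 and 5.19 FPKM. No library of these 3 reached the lowest value of kidney, lung, heart or aorta. The reads behind them were few, with 2, 5 and 4 SENCR reads in the liver libraries, 5, 2 and 5 in stomach and 8, 1 and 4 in brain. A single read was worth between 1.2 FPKM in brain library 2 and 3.97 FPKM in liver library 3. Counting error alone therefore gave exact 95% Poisson intervals of 0.893 to 26.6 FPKM for liver library 1 and 1.41 to 13.3 FPKM for brain library 3. In kidney, by contrast, 34, 13 and 46 reads gave intervals of 54.7 to 110, 16.6 to 53.4 and 74.7 to 136 FPKM, and the intervals of libraries 1 and 2 did not overlap. Such intervals cover counting error only, and are too narrow even for that where PCR copies of a molecule are counted as separate reads.

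FLI1 was read far more deeply, with 13444 reads over the 24 libraries against 422 for SENCR. Spleen had FLI1 at 1095, 484 and 509 FPKM in libraries 1, 2 and 3. Lung had it at 846, 325 and 524 FPKM. These were the 2 highest tissues, and no library of another tissue reached their lowest value of 325 FPKM. Heart had FLI1 at 310, 115 and 228 FPKM. Aorta had it at 273, 140 and 163 FPKM. Kidney, the tissue with the highest mean of SENCR, had FLI1 at 165, 56.2 and 153 FPKM, inside the range spanned by heart and aorta except for library 2. Liver was at 117, 30.1 and 89.9 FPKM, stomach at 76.3, 27.7 and 51.5 FPKM and brain at 44.8, 21.9 and 47.5 FPKM. The 3 lowest tissues for FLI1 were thus the 3 lowest for SENCR.

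**Figure D1:**
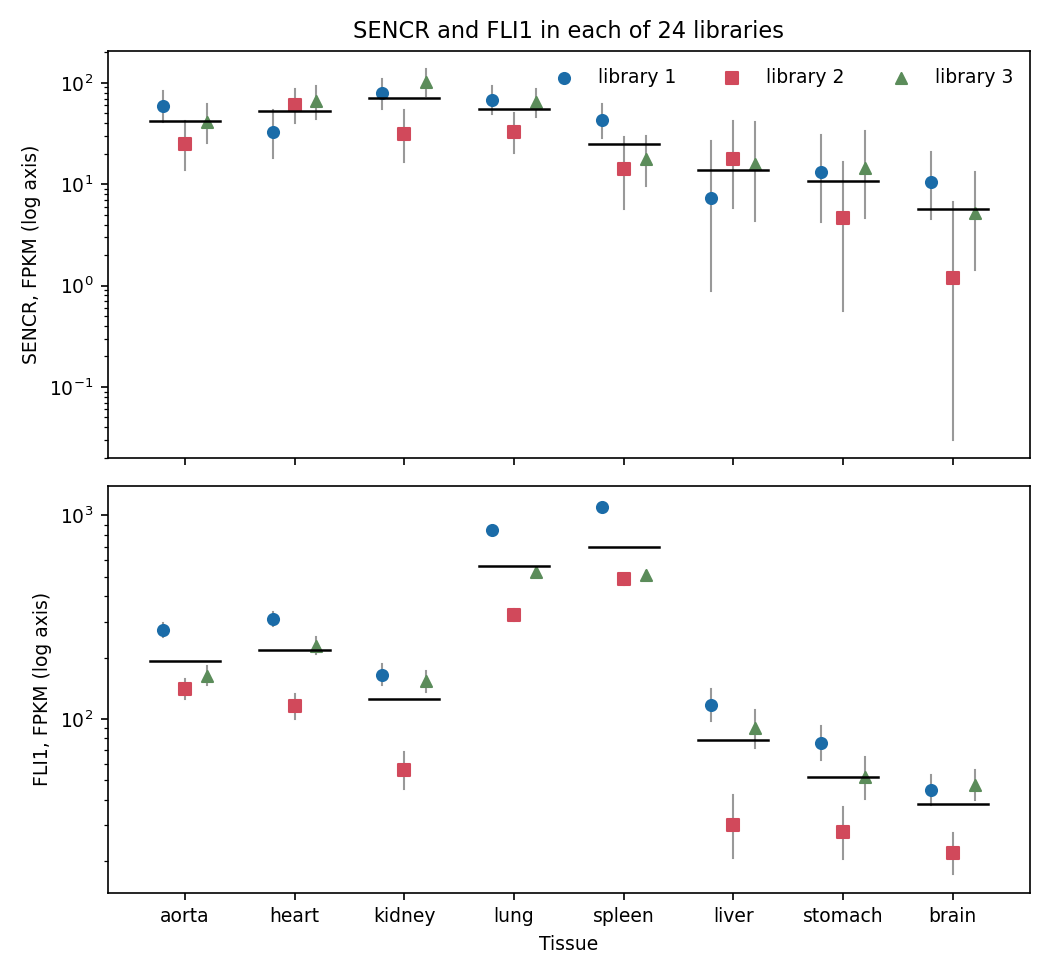
FPKM of SENCR (top) and FLI1 (bottom) on log axes in the 3 libraries of each tissue, marked by library number; black bars are tissue means and grey lines exact 95% Poisson intervals of the reads. FLI1 was highest in spleen and lung, SENCR in kidney, lung and heart, and the FLI1 value of library 2 was the lowest of the 3 in all 8 tissues.

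Differences between tissues were tested with limma on log2(FPKM + 1) over the 4260 genes that reached 1 FPKM in 3 or more libraries. A gene was called where the difference was 1 or more and its adjusted p stayed under 0.05. Ordered by mean log2 level, SENCR ran from kidney through lung, heart, aorta, spleen, liver and stomach to brain. None of the 7 steps between neighbours in that order was called, the largest being 0.98 ± 0.59 (SE) on the log2 scale between stomach and brain (limma adjusted p = 0.203). FLI1 ran from spleen through lung, heart, aorta, kidney, liver and stomach to brain. Here too no neighbouring pair was called, and the largest step was 1.38 ± 0.55 between lung and heart (limma adjusted p = 0.0567). A pair that was not called is not thereby shown to be alike. In FLI1 every lung library exceeded every heart library, with a lowest value of 325 FPKM against a highest of 310.

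Over all 28 pairs of tissues SENCR was called in 13 and FLI1 in 17, and 27.3% of all gene-by-pair tests were called by the same rule. In 11 pairs both genes were called. SENCR alone was called in kidney against liver (2.21 ± 0.59 on the log2 scale, SE; limma adjusted p = 0.00873) and kidney against stomach (2.59 ± 0.59, limma adjusted p = 0.00281). FLI1 differed there by 0.71 ± 0.55 (limma adjusted p = 0.430) and 1.22 ± 0.55 (limma adjusted p = 0.136). FLI1 alone was called in 6 pairs, 5 of which held spleen: spleen exceeded aorta, heart, kidney, liver and stomach in FLI1 by 1.68 to 3.73. SENCR was on the contrary higher in aorta, heart and kidney than in spleen by 0.81, 1.16 and 1.48, none of which was called (limma adjusted p = 0.341, 0.139 and 0.0668). In the sixth such pair, kidney against lung, the FLI1 difference was -2.21 ± 0.55 (limma adjusted p = 0.00407) and SENCR differed by 0.27 ± 0.59 (limma adjusted p = 0.827). Whether the 2 genes differed in these pairs was not tested pair by pair.

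**Figure D2:**
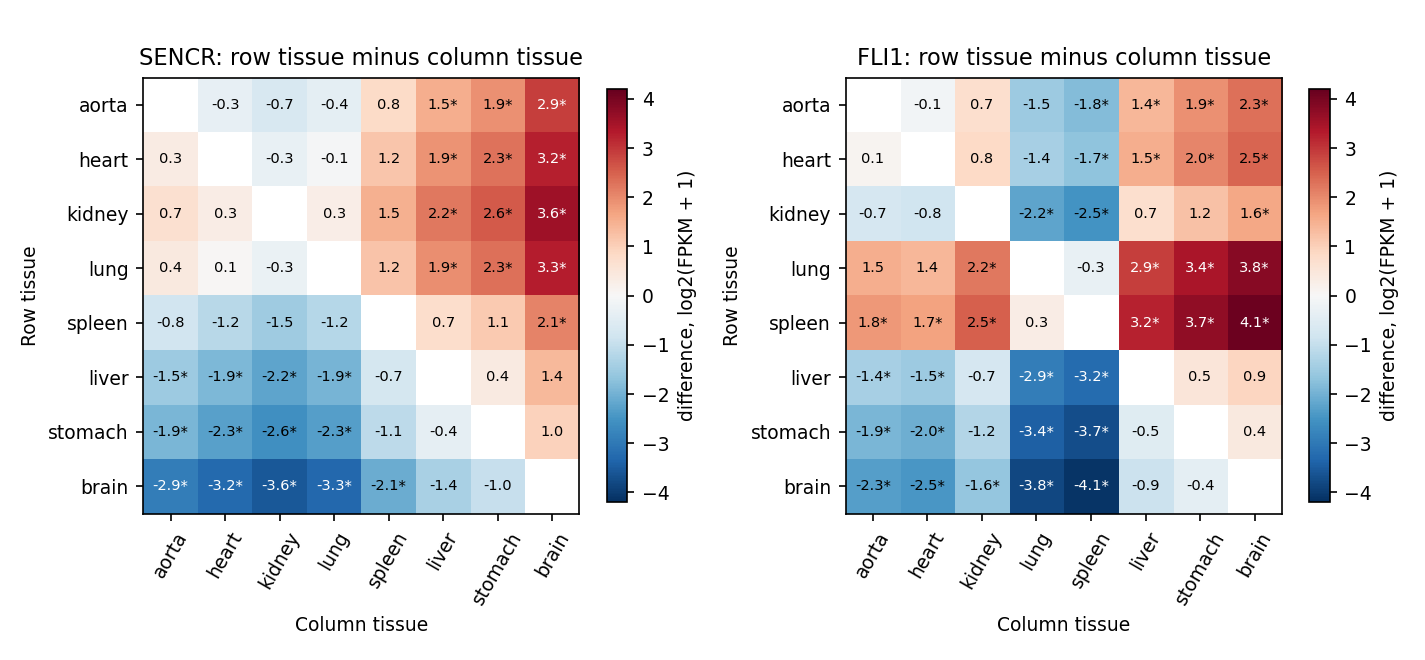
Differences between every 2 tissues in SENCR (left) and FLI1 (right), as row tissue minus column tissue on the log2(FPKM + 1) scale, with an asterisk where limma called the pair. SENCR was called in 13 of 28 pairs and FLI1 in 17, and spleen was called above 6 tissues in FLI1 and above brain alone in SENCR.

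Against the mean of the other 7 tissues, the calls for the pair coincided in lung, stomach and brain. In lung, SENCR was higher by 1.28 ± 0.45 (SE; limma adjusted p = 0.0351) and FLI1 by 2.14 ± 0.42 (0.000525), where 11.9% of genes were called higher and 3.64% lower. In brain, SENCR differed by -2.49 ± 0.45 (limma adjusted p = 8.25e-05) and FLI1 by -2.23 ± 0.42 (0.000122), where 10.5% were called lower and 23.9% higher. In stomach the differences were -1.37 ± 0.45 (limma adjusted p = 0.0278) and -1.78 ± 0.42 (0.00295), with 5.87% called lower and 7.65% higher. SENCR but not FLI1 was called higher in kidney (1.59 ± 0.45, limma adjusted p = 0.00945, against -0.39 ± 0.42, 0.509; 9.77% of genes higher, 8.12% lower) and heart (1.22 ± 0.45, 0.0330, against 0.56 ± 0.42, 0.282; 6.41% higher, 17.4% lower). FLI1 but not SENCR was called higher in spleen (2.48 ± 0.42, limma adjusted p = 7.33e-05, against -0.10 ± 0.45, 0.866; 11.5% of genes higher, 13.5% lower) and lower in liver (-1.20 ± 0.42, 0.0229, against -0.94 ± 0.45, 0.0910; 9.81% higher, 17.3% lower). Neither was called in aorta, with differences of 0.82 ± 0.45 and 0.42 ± 0.42 (limma adjusted p = 0.163 and 0.462; 9.58% of genes higher, 8.19% lower). A call for only 1 of the genes does not show that they differ, and their ratio is described below. By the exact permutation test of 3 libraries against 21, with p adjusted over the 8 tissues of a gene, SENCR in brain (0.0198) and FLI1 in spleen (0.0435) passed, and no other tissue did. Of the limma calls that failed it, FLI1 was at 0.0593 in lung and brain, 0.128 in stomach and 0.361 in liver, and SENCR at 0.257 in kidney and 0.262 in heart, lung and stomach. The SENCR calls outside brain were not firm under limma either. They ended without heart library 2 (1.10, limma adjusted p = 0.130) or 3 (1.03, 0.150), kidney library 1 (1.43, 0.0623) or 3 (1.25, 0.0944), lung library 1 (1.09, 0.158) or 3 (1.14, 0.152), and stomach library 2 (-0.91, 0.229), and the FLI1 call in liver ended without liver library 2 (-0.62, 0.273).

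How the values of SENCR and FLI1 compared from tissue to tissue was read from the ratio of the pair in each library. On the log2 scale, with 1 FPKM added to each gene, the ratio was -1.06, -0.83 and -0.58 in the kidney libraries and -4.65, -5.02 and -4.76 in the spleen libraries. The 3 spleen values were the lowest of all 24 libraries. Kidney lay 1.97 above the other 21 libraries (exact two-sided permutation test, p adjusted over 8 tissues = 0.0356), and spleen 2.58 below them (difference -2.58, adjusted p = 0.00395, from the smallest p the test can give, 0.000494). The other 6 tissues differed from the rest by -0.86 to 0.66 (exact permutation test, adjusted p = 0.752 for each). Dropping kidney library 1, 2 or 3 ended the kidney call (exact permutation test, adjusted p = 0.0791, 0.0949 and 0.142), at differences of 1.85 to 2.09. Heart and liver were the most uneven, with log2 ratios from -3.22 to -0.93 in heart and from -3.82 to -0.72 in liver, and in both library 2 was the highest.

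Reads were also summed over the 3 libraries of a tissue. SENCR made up 93 of 736 reads of the pair in kidney, 12.6% (exact Clopper-Pearson 95% interval 10.3 to 15.3%). In spleen it made up 50 of 5505, 0.908% (0.675 to 1.2%), and in lung 102 of 4207, 2.42% (1.98 to 2.94%). Aorta (5.24%, 4.09 to 6.60%) and heart (5.81%, 4.58 to 7.25%) lay between kidney and lung in these sums. The libraries of heart spread across that gap, since SENCR FPKM was 10.5, 51.9 and 28.8% of FLI1 FPKM in heart, 8.09 to 12.2% in lung and 47.7 to 66.7% in kidney. Stomach (4.92%, 2.57 to 8.43%), liver (4.26%, 2.15 to 7.50%) and brain (3.59%, 1.93 to 6.06%) had 244, 258 and 362 reads of the pair, and their intervals overlapped those of aorta and heart. Since the genes overlap and the labels do not state whether counting used strand, reads of the pair cannot be told apart with certainty. Either row may also hold mouse reads that align to the human genome, and their share in each tissue was not tested. The ratio is therefore not a measure of the relative output of the 2 strands, and its differences between tissues cannot be assigned to the transgene.

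**Figure D3:**
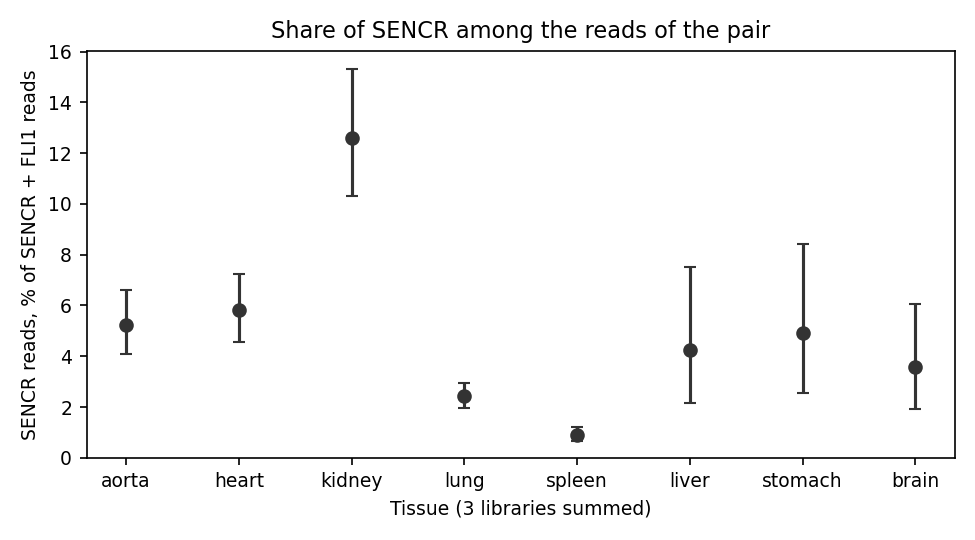
SENCR reads as a percentage of SENCR and FLI1 reads, with the 3 libraries of a tissue summed; bars are exact 95% binomial intervals, which cover counting error only. Kidney was highest at 12.6% and spleen lowest at 0.908%.

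Within tissues the libraries of FLI1 were ordered in the same way from organ to organ. Library 2 had the lowest FLI1 of the 3 in 8 of 8 tissues, at 29.0% of the mean of libraries 1 and 3 in liver, 35.3% in kidney, 42.8% in heart, 43.3% in stomach, 47.4% in lung, 47.5% in brain, 60.4% in spleen and 64.2% in aorta. Library 1 had the highest FLI1 in 7 of 8, the exception being brain. Of the 4260 genes compared, FLI1 was the only gene lowest in library 2 in all 8 tissues, and 12 genes, FLI1 included, were lowest there in 7 or 8. Another 6 genes were highest in library 2 in all 8 tissues, and 22 were highest there in 7 or 8. In all 8 tissues ATP5F1B was lowest and FAF2 and RBM6 highest in library 1, and CCN1 was highest in library 3. This comparison was chosen after the values had been seen. Among 4260 genes some would hold the same place in all 8 tissues by chance, and how many was not computed. Across the 3 numbers, 0 to 6 genes were lowest, or highest, in all 8 tissues, so these counts and names are descriptions. The labels do not say what a shared number stands for, such as an animal or a day of preparation.

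A limma fit with tissue and library number together placed FLI1 lower in the libraries numbered 2 than in the mean of those numbered 1 and 3, with a difference of -1.11 ± 0.12 (SE) on the log2 scale (limma adjusted p = 0.000152). FLI1 had the smallest p of the 4260 genes, and RPL30 was the other gene with an adjusted p under 0.05. The fit was added after these FLI1 values had been seen, so its p-values for FLI1 describe the pattern and are not independent support for it. Libraries numbered 1 were higher in FLI1 by 0.92 ± 0.12 (limma adjusted p = 0.00203), again with the smallest p of all genes, and 5 genes passed. Libraries numbered 3 did not differ from the others beyond the error (0.18 ± 0.12, limma adjusted p = 0.869), and no gene passed by this test. In the libraries numbered 2 the 5 other ETS genes looked at did not pass, with ERF at -0.69 ± 0.25 (limma adjusted p = 0.424), ETV6 at -0.19 ± 0.11 (0.654), ETS1 at -0.06 ± 0.25 (0.970), ELF2 at 0.17 ± 0.17 (0.827) and ERG at -0.00 ± 0.19 (0.998). In those numbered 1, ETV6 was at 0.42 ± 0.11 (limma adjusted p = 0.187).

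For SENCR, library 2 was the lowest of the 3 in 6 of 8 tissues, at 15.2% of the mean of the others in brain, 33.8% in stomach, 34.5% in kidney, 46.4% in spleen, 49.2% in lung and 50% in aorta. In heart and liver it was above that mean, at 122% and 154%. The fitted difference was -0.83 ± 0.27 (limma adjusted p = 0.382), so SENCR did not pass over all genes. The 2 genes' differences were not tested against each other.

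Deviations of SENCR and FLI1 from their tissue means had the same sign in 19 of 24 libraries. Across the 24 libraries they correlated at Pearson r = 0.50 (p = 0.0341, 100000 permutations of libraries within tissues, two-sided) and Spearman rho = 0.46 (p = 0.0541), and at 0.57 and 0.52 without kidney and liver library 2, those farthest from the median in FLI1. FLI1 deviations were -1.16 to -0.39 for number 2 and 0.31 to 0.77 for number 1, which did not overlap, and -0.35 to 0.44 for number 3, which overlapped number 1. Once the mean of each number was also removed, r was -0.12 (permutation p = 0.695) and rho -0.08 (p = 0.772). Within the 8 libraries of a number, r was -0.47 for number 1, -0.40 for number 2 and 0.75 for number 3 (exact permutation p = 0.191, 0.331 and 0.0364; 0.286, 0.331 and 0.109 adjusted over the 3). The relation within tissues did not hold once library number was removed.

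**Figure D4:**
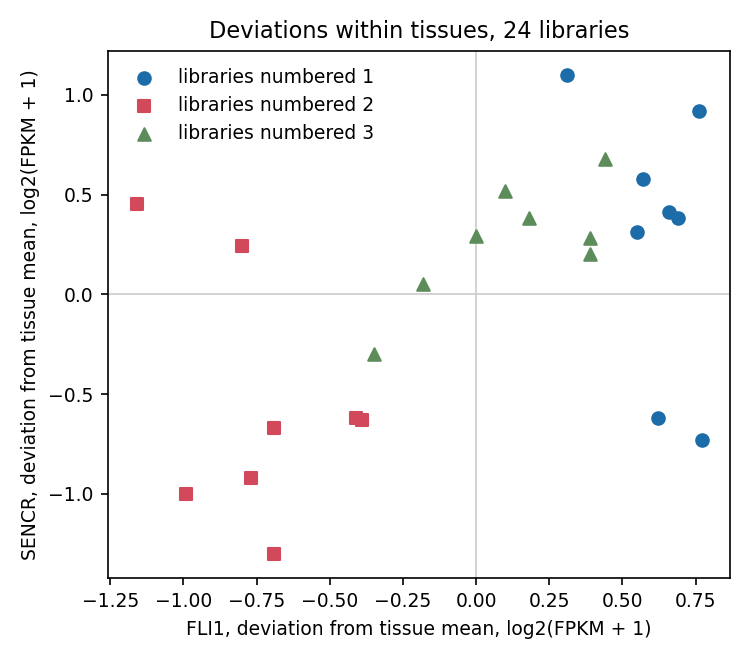
Deviation of each library from its tissue mean on the log2(FPKM + 1) scale for FLI1 (horizontal) and SENCR (vertical), marked by library number. All 8 libraries numbered 2 lay below 0 in FLI1 and 6 of them below 0 in SENCR, while all 8 numbered 1 lay above 0 in FLI1.

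Genes that follow FLI1 were looked for over the 8 tissue means of log2(FPKM + 1), among 2994 genes that reached a mean of 5 FPKM in a tissue. These correlations describe 8 points that share libraries and scaling, and the median over all genes compared was -0.0311. The closest was ETS1, its neighbour on the human chromosome and an ETS factor of lymphoid and endothelial cells, with Pearson r = 0.975 and Spearman rho = 0.976. ETS1 was at 76.0 ± 26.0 FPKM in spleen (SD, n = 3), 26.1 ± 5.54 in lung, 12.4 ± 5.52 in heart and 7.59 ± 1.08 in aorta, and at 1.40 ± 1.15 in brain. The next was a further ETS factor, ELF2 (r = 0.942), at 26.5 ± 10 FPKM in spleen and 22.8 ± 3.16 in lung against 5.58 ± 0.791 in brain. MSN followed (r = 0.921), the gene of moesin, which ties the cortical actin of endothelial and blood cells to the membrane, at 511 FPKM in lung, 260 in aorta, 258 in spleen and 10.4 in brain.

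The rest of the 10 closest to FLI1 were NUP153 of the nuclear pore (r = 0.911), the chaperone gene DNAJC7 (0.899), the deubiquitinase gene OTUD4 (0.895), the proteasome subunit PSMB4 (0.894), the translation initiation subunit EIF3H (0.875), the ubiquitin ligase gene MYLIP (0.874) and LMO2 (0.873), a cofactor of FLI1 in blood progenitors. LMO2 was at 54.1 ± 27.7 FPKM in spleen, 31.5 ± 2.37 in lung and 28.9 ± 12.5 in aorta (SD, n = 3) and at 6.53 or less elsewhere. NUP153, OTUD4, PSMB4 and EIF3H stayed under 10 FPKM in every tissue. Only 4 genes exceeded r = 0.9 and 40 exceeded 0.8. ETS1, ELF2 and MSN stayed among the 10 closest in all 24 fits that left out a single library, LMO2 in 17 and EIF3H and MYLIP in 11. The genes most opposed to FLI1 were DDX1 (r = -0.892), SCAMP5 (-0.871), PPME1 (-0.855), PPP2CA (-0.855) and EMC4 (-0.854). SCAMP5, a secretory vesicle protein of neurons, was at 303 FPKM in brain and 4.25 in lung, while DDX1, an RNA helicase, spanned no more than 72.2 to 113 FPKM.

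Promoters of these genes were searched for letters around the GGAA core. The motif was CGGAAG on both strands, in mouse promoters of 250 bases before to 50 after a gene's start, from RefSeq on GRCm38.p6. Of the 10 genes closest to FLI1, 7 were matched by symbol and 4 of them (ELF2, MSN, DNAJC7 and PSMB4) held it. NUP153, OTUD4 and MYLIP did not, and ETS1, EIF3H and LMO2 had no match by symbol. Of the 10 closest to SENCR 9 were matched and 3 held it. The motif was in 16.9% of all promoters of that length and in 32.1% of the 5492 genes of the expression table that were matched, so these counts of a few genes are descriptions. The 250 bases before the start are given for the 3 of the 4 whose matches lie wholly inside them, ELF2, MSN and DNAJC7. The genes were picked by their correlation with FLI1 and the promoters by holding the motif. The other listed promoter of ELF2 and that of DNAJC7 did not hold it. Capitals mark the motif or its reverse complement, and sequences run 5′ to 3′ on the strand of the gene.
Elf2, chr3:51277515-51277764, minus strand, 1 of 2 promoters listed: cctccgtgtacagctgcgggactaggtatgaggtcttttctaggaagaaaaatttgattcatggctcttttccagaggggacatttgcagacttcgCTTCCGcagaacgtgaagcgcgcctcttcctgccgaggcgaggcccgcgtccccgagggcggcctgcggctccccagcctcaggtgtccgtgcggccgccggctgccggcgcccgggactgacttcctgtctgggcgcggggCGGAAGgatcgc
Msn, chrX:96095795-96096044, plus strand: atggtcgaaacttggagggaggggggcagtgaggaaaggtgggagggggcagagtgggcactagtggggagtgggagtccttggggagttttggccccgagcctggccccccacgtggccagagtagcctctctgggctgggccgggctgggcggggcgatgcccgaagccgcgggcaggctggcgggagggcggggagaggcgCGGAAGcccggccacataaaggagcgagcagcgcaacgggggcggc
Dnajc7, chr11:100619628-100619877, minus strand, 1 of 2 promoters listed: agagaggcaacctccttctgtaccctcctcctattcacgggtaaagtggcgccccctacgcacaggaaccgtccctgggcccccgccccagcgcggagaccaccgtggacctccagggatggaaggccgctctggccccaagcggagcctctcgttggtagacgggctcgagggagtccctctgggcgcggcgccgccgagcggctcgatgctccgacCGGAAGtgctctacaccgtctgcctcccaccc
The ELF2 promoter shown carried the motif once on each strand, and those of MSN and DNAJC7 once on the strand of the gene. A match is a run of letters and not a measured binding site.

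Fewer genes followed SENCR closely. Only 2 of 2994 exceeded r = 0.9 and 5 exceeded 0.8, and the median was -0.0482. Under -0.8 lay 18 genes, against 15 for FLI1. The SENCR means rest on 422 reads against 13444 for FLI1, and the effect of this on the correlations was not tested. DAB2, an endocytic adaptor, was closest (r = 0.947, rho = 0.833), at 12.8 FPKM in lung, 11.4 in heart, 10.2 in aorta and 9.77 in kidney, and between 1.30 and 3.41 FPKM in spleen, liver, stomach and brain. KPNA4, an importin alpha, was next (r = 0.943), but with a narrow span of 210 FPKM in brain to 319 in kidney. USP19 (r = 0.881), a deubiquitinase gene, ran from 12.4 FPKM in brain to 31.9 in lung. The others were RBMS1 (0.827), YBX1 (0.812), TEAD1 (0.798), PSMB4 (0.794), TEK (0.793), CDKN2C (0.790) and RNPEPL1 (0.785). TEK, the angiopoietin receptor of endothelial cells, was at 17.2 ± 4.07 FPKM in lung, 4.79 ± 2.62 in aorta, 4.19 ± 0.899 in kidney and 2.57 ± 1.52 in heart (SD, n = 3), and was listed at 0 in spleen, liver and brain. TEAD1, a partner of YAP in Hippo signalling, was at 66.1 FPKM in lung and 38.4 in heart against 2.08 in brain.

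DAB2, KPNA4 and USP19 stayed among the 10 closest to SENCR in all 24 fits without a single library, and TEK in 12. Without the libraries numbered 2, however, 3 of the 10 remained, KPNA4, USP19 and PSMB4, and DAB2 was not among them. The genes most opposed to SENCR were ZDHHC21 (r = -0.928), VPS51 (-0.863), OLA1 (-0.861), PPP2R5D (-0.856) and UBE2V2 (-0.854). OLA1, a cytosolic ATPase, was lowest at 100 FPKM in lung and highest at 252 in liver. PSMB4 was the single gene among the 10 closest to both members, and 21 genes were shared between the 100 closest to each. It was low and uneven, at 4.53 ± 5.57 FPKM in spleen and 3.38 ± 5.85 in liver (SD, n = 3). PSMB4 stayed among the 10 in 11 of the 24 fits for SENCR and in 15 for FLI1. FLI1 itself came 58th among the genes like SENCR (r = 0.672, rho = 0.619), and SENCR 148th among those like FLI1.

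**Figure D5:**
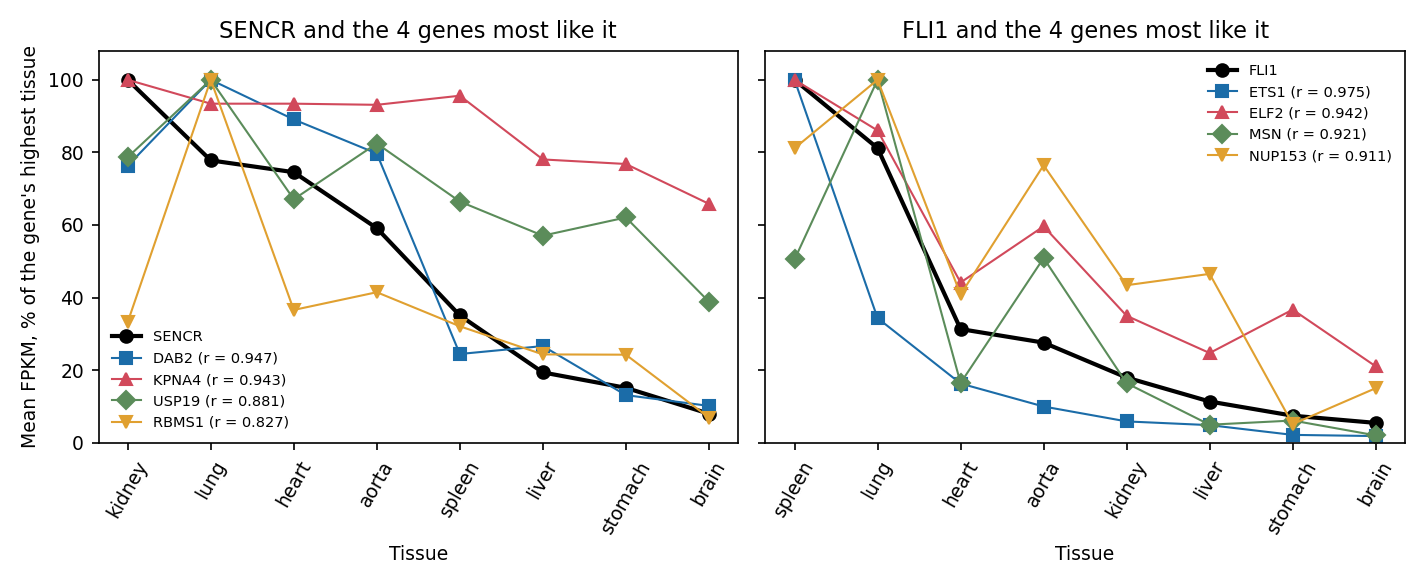
Mean FPKM in each tissue as a percentage of the gene's highest tissue, for SENCR (left) and FLI1 (right, both black) and the 4 genes with the highest correlation; r was computed on log2(FPKM + 1) and the axis is linear. ETS1 fell from spleen to brain with FLI1, and DAB2 was high in the same 4 tissues as SENCR.

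Gene lists chosen with earlier results of these data known place the pair among its relatives. Members enter these counts after passing the filter of 1 FPKM in 3 libraries, which a gene can pass through the tissue where it is high, so the counts are descriptions and not evidence. Of 28 ETS genes, 19 were in the table and 12 besides FLI1 were tested. Over all genes, 11.5% were called higher and 13.5% lower in spleen, 11.9% and 3.64% in lung, 9.77% and 8.12% in kidney, and 23.9% and 10.5% in brain. In spleen 6 of the 12 were higher, among them SPI1 (3.39, limma adjusted p = 1.47e-07), the myeloid and B cell factor, ETS1 (3.58, 1.25e-07), ELF2 (1.22, 0.000395) and ELK3 (1.44, 0.00792), and 2, ERF and ETV1, were lower. In lung 5 were higher, including ERG (2.47, limma adjusted p = 3.62e-07), the endothelial factor closest to FLI1 in sequence, and none was lower. In kidney 3 were higher, ERF (1.52, limma adjusted p = 0.00599), ETV1 (1.97, 6.57e-05) and ETV6 (1.07, 0.000328), and SPI1 was lower. In brain 4 were lower and ETV1 was higher. The median correlation of the 12 was 0.51 with FLI1 and 0.32 with SENCR, against -0.00 and -0.03 over all genes tested. TPM and median-ratio scaling moved the median of all genes in a tissue by -0.22 to 0.34, and no called gene of the lists changed sign under either.

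The partners of FLI1 in blood progenitors were in the table for ERG, GATA2, RUNX1 and LMO2. All 4 were higher in lung, where 11.9% of all genes were, and GATA2 was at 41.7 ± 4.32 FPKM there (SD, n = 3) and differed by 3.58 (limma adjusted p = 4.10e-07). In spleen, with 11.5% of genes higher, LMO2 was higher (3.01, limma adjusted p = 4.38e-05), while GATA2 was at 3.63 ± 2.61 FPKM and ERG was listed at 0. In aorta, with 9.58% of genes higher, GATA2 and LMO2 were higher. Their median correlation was 0.63 with FLI1 and 0.51 with SENCR.

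Markers of blood and endothelial cells, which use FLI1, were counted in the 2 tissues where it was highest, where 11.5% (spleen) and 11.9% (lung) of all genes were called higher; spleen was not tested against lung. Of 32 blood cell genes 11 were tested, and 10 were higher in spleen, such as the B cell factor PAX5 (58.7 FPKM) and the lymphoid factor IKZF1 (30.2 FPKM), and 6 in lung, with none lower in either. Of 29 endothelial genes 8 were in the table and 4 were tested, TEK, ERG, ENG and CLDN5. All 4 were higher in lung, none was higher in spleen, and TEK was lower there. PECAM1, CDH5, VWF and TIE1 were not among the rows used here, so the endothelial list is thin. The median correlation of the blood cell genes was 0.68 with FLI1 and 0.07 with SENCR, and that of the 4 endothelial genes 0.47 and 0.53. The part of cell numbers in the levels of the pair was not tested.

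Over all genes 9.58% were called higher and 8.19% lower in aorta, and 9.77% and 8.12% in kidney. Of 8 smooth muscle genes tested, 7 were higher in aorta, with DES lower there. In kidney, where SENCR was highest by mean, none was higher and 5 of the 8 were lower. Lung, however, had 4 higher and 0 lower, and heart had 3 higher and 5 lower. Stomach, low in SENCR, had 4 higher and 0 lower. None was higher in spleen, liver or brain, where 5, 7 and 8 were lower. The shares of all genes called in these other tissues are given above. SMTN was most like SENCR among the 8 genes (r = 0.72), at 104 FPKM in aorta and 39.9 in heart. ACTA2 was at 48.3 FPKM in aorta and listed at 0 in kidney and heart. The median correlation of the 8 was 0.30 with SENCR and 0.23 with FLI1. CKAP4 and FOXO1 were the tested genes of 7 that work on SENCR has named. CKAP4 was at 0.761 FPKM or less in every tissue and FOXO1 at 0.351 to 2.86 FPKM. Neither was called in any tissue, but the log2(FPKM + 1) scale understates differences at such levels, so no conclusion is drawn. Of 6 pericyte genes 3 had a row and of 12 platelet genes 1, none of them passed the filter, and the level of the others is unknown.

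Of the tested genes that lie near the pair on the human chromosome, only ETS1 followed FLI1 closely. KCNJ1, a potassium channel of the kidney tubule, was at 1497 FPKM in kidney and at 1.04 or less elsewhere, so it shared with SENCR its highest tissue (r = 0.47) and not the levels in lung, heart and aorta. BARX2, a homeobox gene, was at 4.51 FPKM in stomach and 2.17 in brain and was opposed to both members (r = -0.63 with SENCR and -0.49 with FLI1). KCNJ5, ARHGAP32, KIRREL3 and ST3GAL4 were at 0.307 FPKM or less in every tissue. The labels do not give the extent of the insert, so which of these genes it carries is unknown.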

How the data were processed

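RNA from 8 tissues was sequenced in 24 libraries. The submitters' processing notes name fastp, HISAT2, HTSeq and the human genome GRCh38.p13 without versions. The labels' protocols give neither annotation nor strand setting. The authors deposited FPKM for 7493 genes. Nothing in the labels says that libraries of a tissue came from separate animals, so p-values measure the spread between these libraries.

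Low FPKM values are whole multiples of the value of 1 read. Reads were recovered from these steps for 7492 genes (99.99%; relative tolerance of 1e-06), and on simulated data for 99.6% of 6875 genes exactly. Recovered totals were 0.982 to 1.01 times the depth given by the steps. They served for intervals and an alternative.

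Using R 4.3.3, limma 3.58.1 modelled log2(FPKM + 1), a scale that understates changes of low genes, with 8 tissue means, a mean-variance trend and Benjamini-Hochberg adjustment over 4260 genes within each contrast. Fits were also tested on simulated data. Ratios were tested by exact permutation of 3 libraries against 21. Python 3.11.15 with numpy 2.4.6, pandas 2.3.3 and scipy 1.17.1 was used.

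The members, gene lists and tests were chosen with earlier results of these data known. Named genes are SENCR, FLI1, the 10 most and 5 least correlated with each over tissue means, genes near the locus, and list members most or least correlated with either; other names were picked from seen values. The alternatives tried were pseudocounts of 0.1 and 5, no filter, a filter at 5 FPKM, TPM and median-ratio scaling, voom on recovered reads, a replicate block, each library left out, rank correlation and a minimum of 20 FPKM. A fit by library number and leaving out the libraries numbered 2 were added after seeing the data.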

Additional observations from a re-analysis of the deposited data

How the results depend on the processing

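Of 947 values recomputed under alternatives, 884 kept their direction and side of the threshold, or stayed within 1.5 times for counts. SENCR was called in 11 to 15 of 28 pairs of tissues and FLI1 in 14 to 21 under the alternatives that used all tissues. Leaving out a library gave 10 to 15 and 15 to 19.

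SENCR against the mean of the other 7 tissues lost its call in heart with a pseudocount of 5 (1.00), no filter (1.22) or without the libraries numbered 2 (0.76), in lung with a pseudocount of 0.1 (1.36), no filter (1.28), TPM (1.34) or median-ratio scaling (1.04), and in stomach with voom on recovered reads (-1.35). It gained one in liver without the libraries numbered 2 (-1.51). FLI1 lost its call with voom in liver (-1.21) and stomach (-1.82) and, without the libraries numbered 2, in liver (-0.96), and gained one in heart under median-ratio scaling (1.12). The cause was not tested.

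Leaving out a library gave SENCR 0.53 to 1.14 in aorta, 1.03 to 1.53 in heart, 1.25 to 2.08 in kidney, 1.09 to 1.61 in lung, -0.56 to 0.21 in spleen, -1.16 to -0.57 in liver, -1.63 to -0.91 in stomach and -3.05 to -1.85 in brain. For FLI1 it gave -0.66 to 0.11 in kidney and -1.58 to -0.62 in liver. SENCR in spleen changed sign without spleen library 2 (0.21) or 3 (0.05), and FLI1 in kidney without kidney library 2 (0.11), none of them called.

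The log2 ratio in kidney was 1.85 to 2.09 without a library and 2.08 without those numbered 2 (adjusted p = 0.0667 by exact permutation, also for spleen at -2.36; with 2 libraries against 14, a tissue alone at the smallest possible p cannot go below this). It changed sign, uncalled, in brain with a pseudocount of 5 (0.29), without brain library 2 (0.04) or the libraries numbered 2 (0.19), and in liver without liver library 2 (-0.54; range to 1.01) or those numbered 2 (-0.55). In brain the range was -0.66 to 0.04.

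The relation within tissues was 0.41 to 0.68 without a library, passing in 12 of 24 such cases, and 0.22 without the libraries numbered 2 (permutation p = 0.804). Of the 10 genes most like SENCR, 5 were kept under TPM scaling, 4 by rank correlation, 6 with a minimum of 20 FPKM and 3 without the libraries numbered 2. For FLI1 6 were kept with a pseudocount of 0.1 and under TPM scaling, and 5 with the higher minimum and without the libraries numbered 2. Leaving out a library kept 5 to 10 for each.

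With a replicate block SENCR was called in 15 pairs and FLI1 in 20, and r within tissues was -0.12. Numbers pair the libraries only as a hint from the data: same-numbered libraries of different tissues deviated together over all genes at r = -0.059 to 0.128 (median 0.024, 2 of 84 pairs over 0.1), against a median of -0.017 for other numbers, and 20 of 24 libraries correlated best with their own number. No other call changed with the block. Depth limits SENCR, with 11 to 13 reads over the 3 libraries of liver, stomach or brain.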
